A study of Callithrix jacchus with 20 samples.

Results

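The comparison described here sets cjiPSCs kept in cjPSCM against the same cells after 24 h of pre-ME induction without ActA. CjiPSCs are induced pluripotent stem cells of the common marmoset, and pre-ME, the precursors of mesendoderm, are the cells from which cjPGCLCs (primordial germ cell–like cells) are induced in the second step of the protocol. The labels alone fixed which libraries enter, 2 of cjiPSCs in cjPSCM and 2 of pre-ME − ActA out of 20 in the series, and these are described over all 25102 genes of the count table, of which 15797 passed a filter on low counts and were tested. The paper used the line DPZ_cjiPSC#2, made from foetal fibroblasts, where it states no other. It names no line for the RNA-seq, so a single line for all libraries is likely but not stated. Each condition had 2 biological replicates.

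The starting cells were held in cjPSCM, which contains CHIR at 1 µM, the SRC family inhibitor A419259, the tankyrase inhibitor IWR-1, vitamin C, 10 ng/ml LIF, 1 ng/ml TGFβ and 8 ng/ml FGF2. For pre-ME − ActA, they were trypsinised, plated on vitronectin in aRB27 (Advanced RPMI with B-27) and given 3 µM CHIR and the ROCK inhibitor Y-27632 for 24 h, with no ActA, TGFβ, FGF2, LIF or IWR-1. The groups thus differ in CHIR dose, basal medium, plating and the loss of several factors, and the contribution of each cannot be told apart. The comparison asks how gene expression changes over the pre-ME step when it is run with CHIR and without ActA.

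CHIR inhibits GSK3, the kinase that marks β-catenin for destruction, so that β-catenin accumulates and joins TCF and LEF proteins on WNT target genes. Many of the first targets, such as AXIN2, SP5, NKD1, NOTUM, RNF43 and ZNRF3, encode proteins that dampen the same pathway. In the embryo, WNT together with NODAL patterns the primitive streak, where TBXT, EOMES and MIXL1 are switched on, and WNT on its own is known for its part in caudal and dorsal cell identities.

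The 2 libraries of the starting cells were unlike each other. Reads counted on genes numbered 14256191 and 7910911 in cjiPSCs and 17491325 and 10465294 in pre-ME − ActA, so that 3 counts stood for 0.171 to 0.379 CPM. The log2 difference between the 2 replicates had an SD over genes of 0.914 in cjiPSCs and 0.387 in pre-ME − ActA, against 0.264 to 0.57 in the other 8 conditions. On log2 values, replicate 2 of the cjiPSCs lay at a Euclidean distance of 110.2 from replicate 1 but 93.2 and 99.0 from the pre-ME libraries. Endothelial and blood markers summed to 20836 and 8749 normalised counts in cjiPSC replicates 1 and 2, and to 2325 and 2226 in pre-ME − ActA. Core pluripotency genes summed to 18549.7 and 26783 in the cjiPSCs and to 29905 and 29354 after induction. The part of these differences in the results was not tested, and values with each control library alone are given where they matter.

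Genes were called up- or down-regulated at an adjusted p under 0.05 (edgeR's quasi-likelihood test) and a log2 fold change beyond 2, the thresholds of the study. In this way 333 genes (2.11% of those tested) rose and 499 genes (3.16%) fell in pre-ME − ActA. The counts of calls in the lists below were not tested against these shares. A list with 1 or 2 calls says little about the list as a whole. The median log2 fold change over all genes was 0.03. Which way most genes moved depended on the control: with cjiPSC replicate 1 as the only control 1184 genes rose and 700 fell, and with replicate 2 as the only control 134 rose and 322 fell. Of the genes called, 250 of those that rose and 406 of those that fell had replicate 2 between replicate 1 and both pre-ME libraries. The groups did not overlap for all 333 that rose and 493 of the 499 that fell. Among these the count only records which control lay nearer, and the share over all tested genes is not given here. A call that stood with each of the 4 libraries left out in turn is referred to below as held. Such calls were made for 81 genes that rose (0.513% of those tested) and 227 that fell (1.44%).

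**Figure D1:**
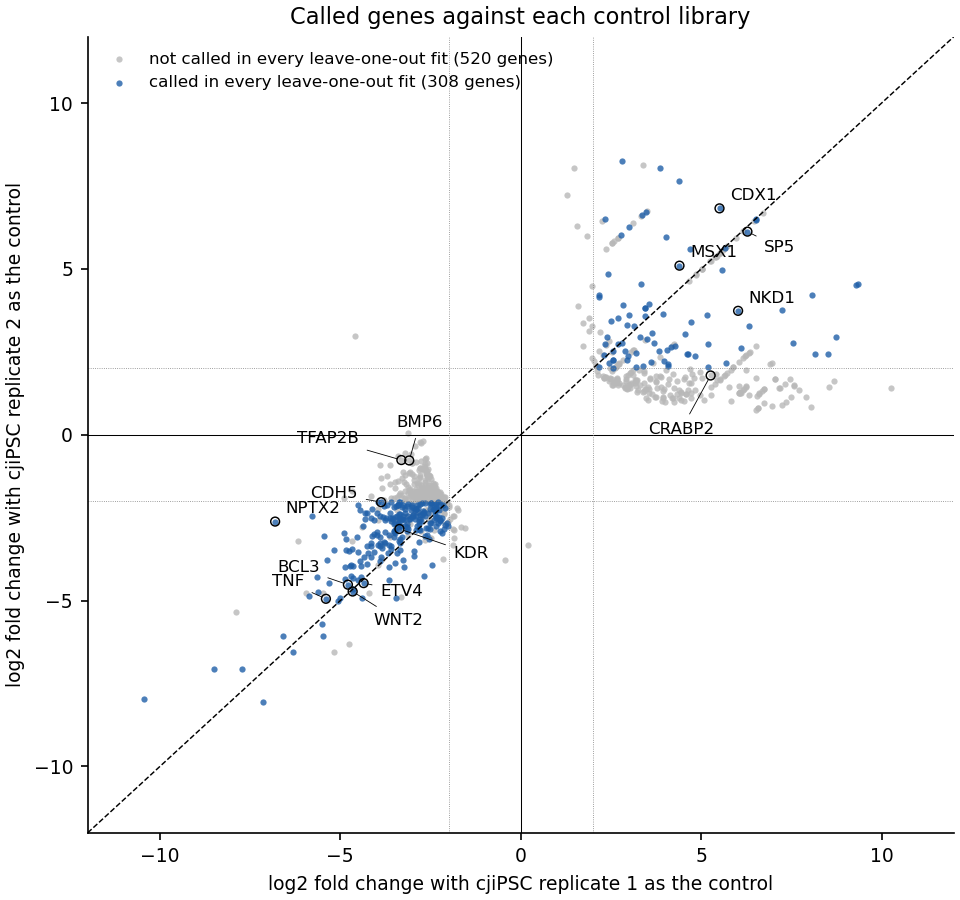
Log2 fold change of 828 of the 832 called genes (4 failed the filter once replicate 1 was left out) with cjiPSC replicate 1 (horizontal axis) or replicate 2 (vertical axis) as the only control. Each point is a gene, blue where the call held with each library left out. Genes that rose lie mostly below the dashed line of equal values, with medians of 3.88 against replicate 1 and 1.95 against replicate 2, and 3 genes lie in a quadrant where the signs differ.

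Of 14 tested feedback genes of the WNT pathway 8 rose and 1 fell, with a list median on the log2 scale of 2.38, or 2.80 with replicate 1 as the only control and 2.22 with replicate 2. It was the highest median of the 43 gene lists examined, except that with replicate 1 alone the caudal factors stood higher, at 4.40. SP5, a transcription factor that represses other WNT targets, had 20.7 and 23.7 normalised counts in the cjiPSCs and 1763 and 1444 in pre-ME − ActA (log2 fold change 6.22, SE 0.28, adjusted p = 1.64e-09) and the largest rise among gene symbols that averaged 100 normalised counts or more after induction. Its replicates lay close together in both groups, far below the distance between them. NKD1, which binds Dishevelled and restrains the pathway, had 34.9 and 175 normalised counts before and 2737 and 1763 after (log2 fold change 4.56, SE 0.44, adjusted p = 1.9e-06). LEF1, the DNA-binding partner of β-catenin, went from 22.6 and 71.2 to 513 and 356 (log2 fold change 3.36, SE 0.34, adjusted p = 3.19e-06). In both cases the starting libraries differed by more than 3-fold in their own right and were still well under the induced ones.

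LGR5, a receptor for R-spondins, was low in the starting cells at 11.3 and 8.89 normalised counts and 154 and 107 after induction (log2 fold change 3.69, SE 0.43, adjusted p = 1.14e-05). RNF43, a ubiquitin ligase that removes Frizzled receptors, was listed at 0 and 7.41 and then at 46.0 and 30.7 (log2 fold change 3.71, SE 0.64, adjusted p = 0.000361). These 5 calls held, as did those of NOTUM and DKK1, while TCF7 completed the 8. AXIN2, the scaffold of the destruction complex and the classical readout of the pathway, was already high in the cjiPSCs at 672 and 808 and reached 1931 and 1697, with no overlap (log2 fold change 1.33, SE 0.14, adjusted p = 3.68e-06). It therefore passed the adjusted p but not the fold threshold. NKD2, a relative of NKD1, was the one member to fall, from 12.2 and 7.41 to 1.77 and 1.98 normalised counts, with at most 3 counts in each pre-ME library (ratio 5.61, 95% counting interval 2.01 to 19.3), and DESeq2 did not call it.

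Of 33 ligands, receptors and secreted inhibitors of the WNT pathway, 1 rose and 2 fell, and their median was -0.13. Over all tested genes 2.11% rose and 3.16% fell. WNT2, a ligand, fell from 203 and 218 to 6.48 and 9.91 normalised counts (log2 fold change -4.68, SE 0.54, adjusted p = 1.07e-05), and the call held. WNT3A, a ligand of the primitive streak, had 1 and 0 counts in the cjiPSCs and 22 and 10 in pre-ME − ActA (ratio 20.5, 95% counting interval 3.43 to 836). SFRP4, a secreted inhibitor, had 20 and 5 counts before and 2 and 1 after. SFRP2, the most abundant member, had 3446 and 4976 and then 5497 and 6204 normalised counts, and its log2 fold change of 0.51 missed the threshold (adjusted p = 0.109).

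Of 9 caudal factors 4 rose and 1 fell, and each of the 5 calls held. The 3 CDX genes among them had next to no reads in the starting cells. CDX1, a homeobox gene that acts upstream of HOX genes, had 3.77 and 1.48 normalised counts in the cjiPSCs and 199 and 147 after induction (log2 fold change 5.90, SE 0.43, adjusted p = 1.39e-07). For CDX2 the raw counts were 0 and 1 against 47 and 30 (ratio 49.4, 95% counting interval 8.61 to 1977). CDX4 had 1 and 0 counts against 37 and 22 (ratio 37.9, 95% counting interval 6.54 to 1520.4). NKX1-2, a factor of the caudal epiblast, had 22.6 and 203 normalised counts in the cjiPSCs and 887 and 738 in pre-ME − ActA (fold change 8.0, adjusted p = 0.000356). CYP26A1, which degrades retinoic acid, moved the other way, from 85.7 and 240.1 to 13.6 and 17.8 (log2 fold change -3.33, SE 0.67, adjusted p = 0.00124).

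HOX genes gave a weaker picture. Of 37 HOX genes in the list 20 were tested, 5 rose and none fell by edgeR or DESeq2 (0 at an unadjusted p under 0.05). None of the 5 calls held. HOXA13, a posterior member, had 1.88 and 11.9 normalised counts in the cjiPSCs and 30.7 and 37.6 in pre-ME − ActA, and its log2 fold change was 4.09 against replicate 1 and 1.54 against replicate 2. HOXA3, HOXB1 and HOXD1 had at most 3 counts in each starting library and between 6 and 30 in the induced ones. At this depth those 3 rises rest on few reads.

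Some factors of the neural plate border and dorsal ectoderm rose as well. Of 10 neural crest factors, 4 rose with calls that held and 2 fell with calls that did not. MSX1, a homeobox repressor that WNT and BMP signals induce, had 18.8 and 11.9 normalised counts in the cjiPSCs and 399 and 392 in pre-ME − ActA (log2 fold change 4.65, SE 0.34, adjusted p = 1.39e-07). PAX3, a paired-box factor of the dorsal neural tube, had 3 and 1 counts against 125 and 77 (ratio 32.4, 95% counting interval 12.5 to 120.1). ZIC1, a zinc-finger factor of the same region, had 0 and 2 counts against 126 and 60 (ratio 59.7, 95% counting interval 16.3 to 496). TFAP2A, a factor of surface ectoderm, amnion and germ cell progenitors, had 12.2 and 43.0 normalised counts before and 187 and 198 after (log2 fold change 2.96, SE 0.47, adjusted p = 0.000189). In all 4 the induced replicates lay within 1.3-fold of each other. TFAP2B, its relative, had 119 and 20.8 and then 12.4 and 10.9, a fall called against both controls together (log2 fold change -2.61, adjusted p = 0.00294) that came to -0.76 with replicate 2 alone. ETS1, which also marks endothelium, was the other member that fell, from 6204 and 2659 to 1140.1 and 1015.

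Among 15 neural factors 3 rose, and only the call of ZIC1 held. SOX3, a SOX2 relative of the early neural plate, had 10.4 and 57.8 normalised counts in the cjiPSCs and 199.8 and 158 in pre-ME − ActA, and PAX6 had 3 and 1 counts against 25 and 11. NES, an intermediate filament of neural progenitors and the most abundant of the list, had 19717 and 22079 and then 14869.8 and 12129.6 (log2 fold change -0.59, SE 0.23, adjusted p = 0.0499). Of 8 tested neuron markers none was called by edgeR or DESeq2 (1 higher and 2 lower at an unadjusted p under 0.05), and the median was 0.35. MAP2, a microtubule protein and the most abundant, had 585 and 609 before and 1679 and 1652 after, short of the fold threshold (log2 fold change 1.52, SE 0.14, adjusted p = 1.83e-06).

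The label of the cells as precursors of mesendoderm was checked against 6 markers, and 2 of them rose. Besides SP5 and CDX1, TBXT (Brachyury), the defining factor of the streak, had 0 and 0 raw counts in the cjiPSCs and 1 and 1 in pre-ME − ActA, so that no fold is given. EOMES, a T-box factor of the streak, had 5 and 1 counts before and 15 and 4 after, and these overlapped (adjusted p = 0.39). MIXL1 had 11 and 4 counts before and 7 and 5 after (adjusted p = 0.229), and MESP1 had 22 and 5 against 22 and 12. A rise of these 4 factors was thus not detectable at this depth, and the name pre-ME is used below only as the name of the culture step. Over the whole list of 14 streak and mesendoderm factors, 1 rose (SP5) and 1 fell. The latter was GATA6, a factor of endoderm and heart, which was high in the starting cells at 2821 and 2232 normalised counts and then stood at 421 and 388 (log2 fold change -2.61, SE 0.28, adjusted p = 4.85e-06).

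**Figure D2:**
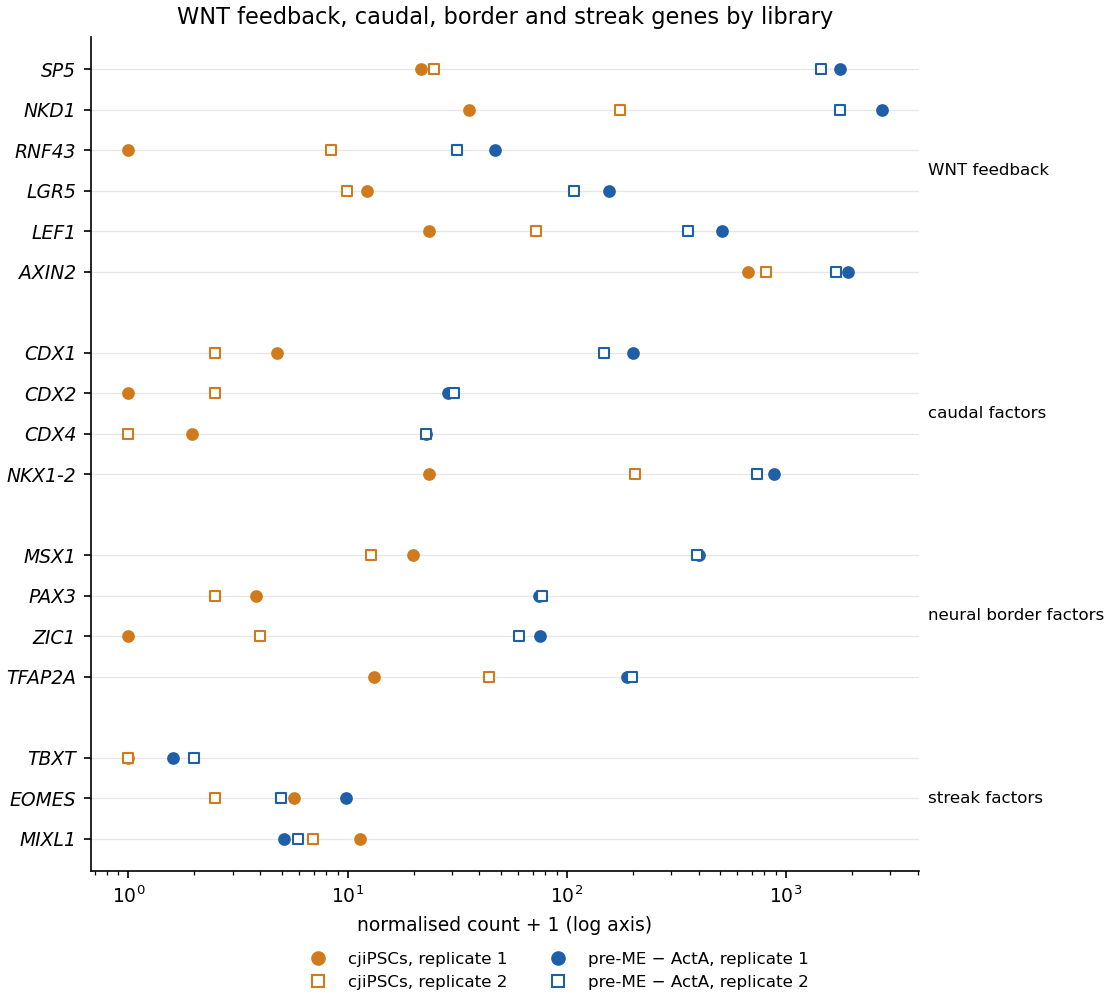
Normalised counts (log axis, with 1 added) of WNT feedback, caudal, neural border and streak genes in the 2 libraries of cjiPSCs (orange) and of pre-ME − ActA (blue), circles for replicate 1 and open squares for replicate 2. The blue points of SP5 lie at 1763 and 1444 against 20.7 and 23.7 in orange, whereas TBXT stays at or below 1 normalised count. The neural border genes shown are only those called as risen.

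The defining pluripotency factors were expressed in both groups. Of 13 core pluripotency genes none was called by edgeR or DESeq2 (6 higher and 4 lower at an unadjusted p under 0.05), and the list median was -0.26. POU5F1 (OCT4A), the defining factor, had 2323 and 2926 normalised counts in the cjiPSCs and 1645 and 1668 in pre-ME − ActA (log2 fold change -0.63, SE 0.17, adjusted p = 0.00795). NANOG had 1760.5 and 1300.0 before and 758 and 988 after (log2 fold change -0.78, SE 0.26, adjusted p = 0.0254). For both, the induced libraries lay below both starting libraries, past the adjusted p and short of the fold threshold. SOX2 overlapped between the groups, with 3491 and 5071 normalised counts before and 3329 and 3624 after (adjusted p = 0.421). SALL4, a zinc-finger factor of pluripotent and germ cells, was higher after induction, at 2895 and 2678 against 784 and 888 (log2 fold change 1.77, SE 0.19, adjusted p = 6.22e-06). LIN28A, which blocks let-7 processing and was the most abundant of the list, had 5314 and 10593 and then 13858 and 13121, with a control spread of nearly 2-fold.

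Several genes tied to naive and formative pluripotency fell. Of 15 tested 7 fell, 3 of them with calls that held (ETV4, ETV5 and TBX3), and none rose by edgeR or DESeq2 (2 at an unadjusted p under 0.05). Those 2, KLF4 and OTX2, had log2 fold changes of 1.86 and 1.89 (adjusted p = 0.000232 and 0.00453), short of the fold threshold. ETV4 and ETV5 are also members of the ERK feedback list below. The list median was -1.91, or -1.13 with replicate 2 alone. TBX3, a T-box repressor, had 431 and 353 normalised counts in the cjiPSCs and 65.4 and 61.4 afterwards (log2 fold change -2.59, SE 0.26, adjusted p = 2.92e-06). KLF5, a Krüppel-like factor, had 1290.5 and 768 and then 180.4 and 229.8 (log2 fold change -2.31, SE 0.33, adjusted p = 7.76e-05), and SUSD2, a surface marker of naive cells, 203 and 47.4 and then 21.8 and 19.8. Against replicate 2 alone the log2 fold changes of these 2 were -1.86 and -1.13. Among 14 primed pluripotency genes 2 rose and none fell by edgeR or DESeq2 (3 at an unadjusted p under 0.05). SALL3 went from 2.83 and 16.3 to 111 and 100.1 (log2 fold change 3.70, SE 0.50, adjusted p = 4.12e-05), a call that held.

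Several ERK feedback genes fell. FGF ligands signal through the kinase ERK, which switches on ETV4 and ETV5 and the SPRY, SPRED and DUSP inhibitors of the cascade. In a list of 18 such genes 5 fell, all with calls that held, 1 rose, and the median was -1.03. ETV4, an ETS factor and direct readout of FGF signals, had 825 and 919 normalised counts in the cjiPSCs and 46.6 and 30.7 in pre-ME − ActA (log2 fold change -4.42, SE 0.27, adjusted p = 5.99e-08). ETV5 had 457 and 671 and then 62.5 and 26.7 (log2 fold change -3.54, SE 0.31, adjusted p = 8.72e-07). SPRED3 had 717 and 642 and then 60.1 and 33.7 (log2 fold change -3.78, SE 0.22, adjusted p = 3.27e-08). For these genes the 2 starting libraries lay within 1.5-fold of each other and an order of magnitude or nearly so above the induced ones. SPRY4 and MAFF were the other 2, SPRY4 going from 752 and 710.0 to 132 and 72.3 and MAFF from 134 and 209 to 33.6 and 29.7. DUSP6, the phosphatase of ERK itself, had 2763 and 3019.5 before and 936 and 822 after, with no overlap and a log2 fold change under the threshold (log2 fold change -1.68, SE 0.16, adjusted p = 1.9e-06).

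EGR1, an immediate early gene that ERK and serum response factor induce, was the member that rose. It had 841 and 149.7 normalised counts in the cjiPSCs and 3263 and 3226 in pre-ME − ActA (log2 fold change 2.71, SE 0.45, adjusted p = 0.000283), and its log2 fold change was 1.96 against replicate 1 and 4.49 against replicate 2. Of 16 immediate early and heat shock genes 4 rose and none fell by edgeR or DESeq2 (7 at an unadjusted p under 0.05), with a list median of -0.14. EGR3 had 0.942 and 11.9 and then 135 and 179 (log2 fold change 4.87, SE 0.72, adjusted p = 9.23e-05), FOSB 47.1 and 20.8 and then 529 and 403 (log2 fold change 3.74, SE 0.62, adjusted p = 0.000248), and FOS 164 and 40.0 and then 746 and 700.4. These 3 calls held. Of 17 FGF ligands and receptors 1 was called: FGF3, a ligand of early ectoderm and otic tissue, had 1.88 and 5.93 normalised counts before and 86.7 and 53.5 after (log2 fold change 4.32, SE 0.58, adjusted p = 5.6e-05).

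Of 14 genes of LIF and STAT3 signalling 3 fell, all with calls that held, and none rose by edgeR or DESeq2 (2 at an unadjusted p under 0.05). The median was -1.24. BCL3, an IκB relative that STAT3 induces, had 432 and 368 normalised counts in the cjiPSCs and 16.5 and 13.9 in pre-ME − ActA (log2 fold change -4.66, SE 0.39, adjusted p = 4.99e-07). SOCS1, an inhibitor of JAK kinases, had 291 and 251 and then 30.7 and 34.7 (log2 fold change -3.03, SE 0.27, adjusted p = 1e-06), and OSMR, a receptor chain that pairs with gp130, 426 and 322 and then 60.7 and 51.5. The starting libraries of these genes differed by less than 1.4-fold. SOCS3, the best known feedback inhibitor of LIF signals, had 942 and 741 before and 269 and 261 after, under the fold threshold (log2 fold change -1.64, SE 0.28, adjusted p = 0.000314), and STAT3 itself had 3866 and 2861 before and 1394 and 1350.3 after (log2 fold change -1.26, SE 0.14, adjusted p = 7.16e-06).

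Of 20 genes of the NODAL and TGFβ pathway 4 fell, 1 rose on few reads (INHBE, 0 and 0 counts against 10 and 2), and the median was -1.20. PMEPA1, a target that restrains SMAD signals, had 967 and 353 normalised counts in the cjiPSCs and 63.1 and 50.5 in pre-ME − ActA (log2 fold change -3.50, SE 0.37, adjusted p = 5.41e-06). TGFB1, the ligand itself, had 3996 and 1362 and then 309 and 292 (log2 fold change -3.13, SE 0.35, adjusted p = 8.3e-06). The calls of PMEPA1 and TGFB1 held. TGFBI, a secreted matrix protein, had 532 and 384 and then 131 and 90.1, with a log2 fold change of -2.01 right at the threshold, and its call did not hold. NODAL had at most 2 counts in each of the 4 libraries, so no fold is given, and LEFTY2 was not analysed here.

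BMP signalling showed no common direction. Of 12 response genes 1 rose, MSX1, and the ID genes that SMAD1 and SMAD5 switch on were not among the calls. At an unadjusted p under 0.05, 5 of the 12 were higher and 3 lower. ID2 was higher (log2 fold change 1.48, adjusted p = 3.52e-05), short of the fold threshold. SMAD6, SMAD7 and SMAD9 were lower, also short of it (-1.20, -1.17 and -0.93, adjusted p = 0.00204, 0.000694 and 0.00235). ID1 had 1194 and 1127 normalised counts in the cjiPSCs and 996 and 1051 in pre-ME − ActA (log2 fold change -0.15, adjusted p = 0.659), and ID3 3232 and 1972 before and 1888 and 2329 after (adjusted p = 0.29). Among 19 ligands and antagonists 3 rose and 2 fell, with 1 held call each way. CHRDL1, a chordin-like antagonist, had 0.942 and 56.3 and then 305 and 284 (log2 fold change 3.63, SE 0.56, adjusted p = 0.000131). GDF7, a ligand, had 226 and 96.4 and then 7.66 and 8.92 (log2 fold change -4.28, SE 0.40, adjusted p = 1.53e-06). FST, which binds activin, was the most abundant, at 488 and 1888 before and 5676 and 5898 after, and its log2 fold change with replicate 2 alone was 1.67. BMP4 overlapped between the groups (1029 and 448 against 702 and 833, adjusted p = 0.885), BMP7 had 1 and 2 counts against 43 and 11, and BMP6 had 777 and 160.1 and then 91.4 and 89.2, with a log2 fold change of -2.36 that came to -0.77 against replicate 2 alone.

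In the NOTCH pathway 2 of 19 genes fell, with both calls held, and none rose by edgeR or DESeq2 (0 at an unadjusted p under 0.05). DLL4, an endothelial ligand, had 429 and 114 normalised counts in the cjiPSCs and 13.6 and 14.9 in pre-ME − ActA (log2 fold change -4.24, SE 0.59, adjusted p = 5.4e-05). HES1, the repressor that NOTCH induces, had 655 and 572 and then 89.6 and 100.1 (log2 fold change -2.67, SE 0.33, adjusted p = 1.68e-05). JAG1, the most abundant ligand, had 7645 and 6496 before and 4023 and 3882 after, below the fold threshold. Genes that handle retinoic acid split by role: of 14 tested 2 rose and 4 fell. CRABP1, which carries retinoic acid in the cytoplasm, had 160.1 and 200.1 before and 961 and 891 after (log2 fold change 2.41, SE 0.25, adjusted p = 4.44e-06), a call that held. CRABP2, of the same family, had 195 and 2225 and then 6773 and 8054 and rested largely on replicate 1 (5.26 against it and 1.79 against replicate 2). Besides CYP26A1, the enzyme CYP26B1 had 32.0 and 37.1 and then 6.48 and 5.94, and DHRS3, which reduces retinal, 1912 and 898 and then 180.4 and 207 (log2 fold change -2.84, SE 0.33, adjusted p = 1.21e-05). These 3 falls held, whereas that of ALDH1A3 (38.6 and 14.8 to 4.72 and 3.96) did not.

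**Figure D3:**
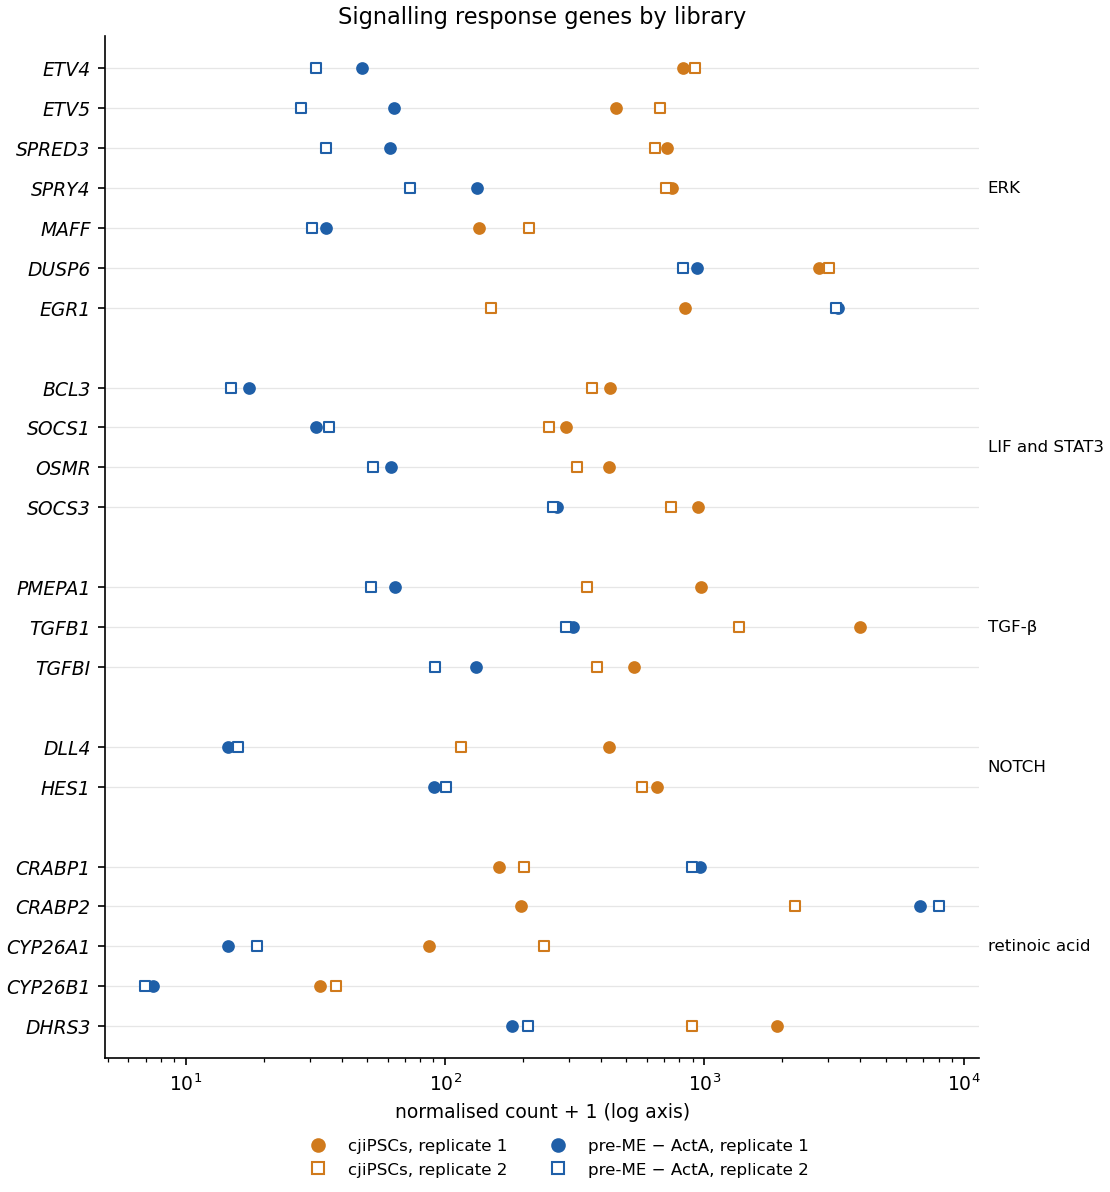
Normalised counts (log axis, with 1 added) of response genes of ERK, LIF and STAT3, TGFβ, NOTCH and retinoic acid in each library of cjiPSCs (orange) and pre-ME − ActA (blue), circles for replicate 1 and open squares for replicate 2. ETV4 sits at 825 and 919 in orange and at 46.6 and 30.7 in blue, while EGR1, CRABP1 and CRABP2 lie to the right in blue.

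Part of the endothelial and blood markers fell. Of 12 endothelial and blood markers 8 were tested, 4 fell and none rose by edgeR or DESeq2 (1 at an unadjusted p under 0.05). DESeq2 called 5 falls. The median was -2.13, or -1.58 with replicate 2 alone. CDH5 (VE-cadherin), a defining endothelial gene, had 11857 and 3403 normalised counts in the cjiPSCs and 876 and 729 in pre-ME − ActA (log2 fold change -3.22, SE 0.42, adjusted p = 3.08e-05). VWF, stored in endothelial granules, had 39.6 and 25.2 and then 2.95 and 0 (log2 fold change -4.08, SE 0.69, adjusted p = 0.000321). TAL1, a factor of blood and endothelium, had 2579 and 2369 and then 519 and 485 (log2 fold change -2.26, SE 0.27, adjusted p = 1.31e-05), with starting libraries close to each other. ESAM, a junction protein, had 4372 and 1969 and then 556 and 625, and its call did not hold. HBZ was at 0 in all 4 libraries. In bulk RNA, fewer cells of a type and less RNA per cell cannot be told apart.

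SOX18, LYVE1 and GJA4, which are also known from endothelium but lie outside that list, were among the 10 largest falls of abundant gene symbols. SOX18, an endothelial transcription factor, had 860.0 and 170.5 normalised counts in the cjiPSCs and 12.97 and 28.7 in pre-ME − ActA (log2 fold change -4.68, SE 0.64, adjusted p = 5.17e-05). LYVE1, a hyaluronan receptor of lymphatic vessels, had 409.7 and 41.5 and then 4.72 and 10.9 (log2 fold change -4.93, SE 0.85, adjusted p = 0.000428), and GJA4, a connexin of arteries, 418 and 168 and then 7.66 and 8.92 (log2 fold change -5.13, SE 0.58, adjusted p = 9.51e-06). All 3 were higher in replicate 1 of the cjiPSCs than in replicate 2, by more than 2-fold, and the induced libraries lay below both. KDR, the VEGF receptor that also marks early mesoderm, had 4981 and 3558 and then 558 and 397 (log2 fold change -3.12, SE 0.20, adjusted p = 6e-08), with less difference between the controls. PECAM1, an adhesion molecule of endothelium and of pluripotent cells, had 12988 and 7096 before and 3121 and 3503 after, with a log2 fold change of -1.57. CLDN5, a claudin of vessel walls, fell from 218 and 139 to 37.1 and 41.6.

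Among 19 mesoderm and mesenchyme genes 3 fell (KDR, FOXC2 and HAND2) and none rose by edgeR or DESeq2 (1 at an unadjusted p under 0.05). FOXC2, a forkhead factor, had 160 and 19 counts in the cjiPSCs and 0 in both induced libraries, which makes it at least 9.48-fold lower (smaller starting library over 3 counts). HAND2 had 34.9 and 25.2 normalised counts and then 6.48 and 6.93, and its call did not hold. Of 10 fibroblast markers none was called by edgeR or DESeq2 (2 higher and 5 lower at an unadjusted p under 0.05). They had a median of -0.97 that came to -0.20 with replicate 2 alone. THY1, the most abundant of them, had 12832 and 7124 before and 2253 and 2888 after (log2 fold change -1.93, SE 0.23, adjusted p = 1.48e-05). Their sum was 26527 and 18299 normalised counts in the cjiPSCs and 7709 and 7746 in pre-ME − ActA. Of 9 trophoblast markers 1 could be tested, PGF, a VEGF family ligand, which fell from 80.1 and 68.2 to 15.9 and 14.9. GCM1, ELF5 and VGLL1 were at 0 in all 4 libraries, and CGA, a hormone subunit too low to be tested, had 2 and 3 counts before and 9 and 8 after.

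Several basement membrane genes and matrix receptors fell. Of 41 collagens 4 fell and none rose by edgeR (1 by DESeq2, and 7 at an unadjusted p under 0.05), with a median of -0.59. COL4A2, a chain of type IV collagen, had 40453 and 30972 normalised counts in the cjiPSCs and 8395 and 5877 in pre-ME − ActA (log2 fold change -2.29, SE 0.23, adjusted p = 2.67e-06). COL4A1, its partner, had 47304 and 34048 and then 9201 and 7595, with a log2 fold change of -1.97 against replicate 2. COL7A1 and COL8A2 were the other 2 that fell. Of 32 integrins and laminins 6 fell and 1 rose, all 7 with calls that held. ITGA5, the fibronectin receptor chain, had 12908 and 7419 and then 1554 and 1232 (log2 fold change -2.84, SE 0.22, adjusted p = 2.29e-07). LAMA4, a laminin chain of vessels, had 3553 and 2315 and then 406 and 347 (log2 fold change -2.93, SE 0.21, adjusted p = 1.2e-07), and ITGB3 260.0 and 280.2 and then 33.0 and 41.6. ITGB8, which frees latent TGFβ, was the one that rose, from 14.1 and 13.3 to 75.5 and 61.4 (log2 fold change 2.34, SE 0.25, adjusted p = 6.1e-06).

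Among 15 cadherins and adhesion genes 2 fell, CDH5 and VIM. VIM (vimentin) was very abundant, at 125212 and 84855 normalised counts in the cjiPSCs and 20552 and 25009 in pre-ME − ActA (log2 fold change -2.17, SE 0.23, adjusted p = 5.21e-06), and with replicate 2 alone its log2 fold change was -1.85. CDH2 (N-cadherin) was higher after induction, at 3325 and 2977 against 1087 and 1773 (log2 fold change 1.18, SE 0.17, adjusted p = 8.59e-05), short of the fold threshold. CDH1 (E-cadherin) had 3 and 3 counts before and 3 and 1 after, at the limit of detection in both. Of 5 keratins tested 1 fell, KRT76, with 25 and 9 counts before and 0 and 1 after, a call that DESeq2 did not make. KRT8, the most abundant, had 778 and 918 before and 546 and 321 after. Claudins gave 1 call each way among 9 and ephrins with their receptors 1 fall among 19, and none of these 3 calls held. Of 20 YAP and SRF targets 1 fell, ANKRD1, from 12293 and 7407 to 1617 and 1970.4, and the median was -0.65.

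**Figure D4:**
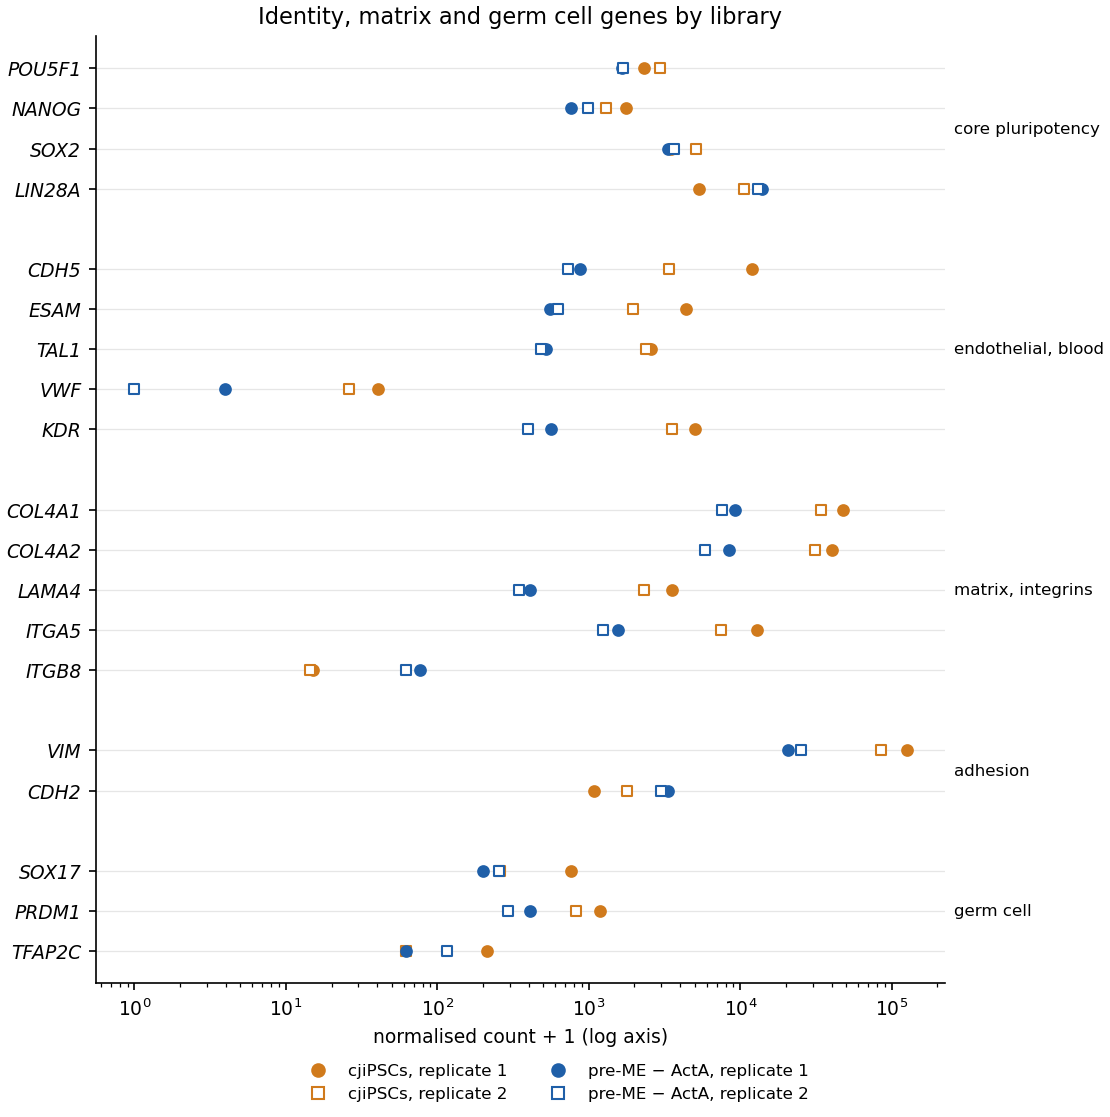
Normalised counts (log axis, with 1 added) of pluripotency, endothelial and blood, matrix, adhesion and germ cell genes in each library of cjiPSCs (orange) and pre-ME − ActA (blue), circles for replicate 1 and open squares for replicate 2. CDH5 lies at 11857 and 3403 in orange and at 876 and 729 in blue, whereas SOX2 overlaps between the colours.

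Of the germ cell determinants SOX17, PRDM1 and TFAP2C none was called at this step. Of 17 germ cell genes 2 rose and 1 fell, with the call of TFAP2A held, against 2.11% and 3.16% over all tested genes. SOX17, which also acts in endothelium and endoderm, had 765 and 258 normalised counts in the cjiPSCs and 199 and 255 in pre-ME − ActA, groups that did not overlap by a narrow margin (log2 fold change -1.17, SE 0.45, adjusted p = 0.0476). PRDM1 (BLIMP1) was lower after induction, at 408 and 290.3 against 1175 and 821 (log2 fold change -1.48, SE 0.21, adjusted p = 7.76e-05), and TFAP2C (AP2γ) overlapped, at 61.3 and 114 against 213 and 60.8 (adjusted p = 0.224). CXCR4, a chemokine receptor of migrating germ cells, had 22.6 and 44.5 and then 141 and 144 (log2 fold change 2.19, SE 0.32, adjusted p = 9.91e-05), and 1.72 against replicate 2 alone. ITGA6, the integrin that the sample titles name for the sort, overlapped, with 3224 and 4632 before and 3448 and 3264 after. DPPA3 fell from 69.7 and 105 to 11.2 and 25.8. In the list of 21 amnion and surface ectoderm genes 4 rose and 1 fell, the held calls being MSX1 and TFAP2A. The amnion marker ISL1 was not called and had 183 and 99.3 and then 59.5 and 62.4, and VTCN1 and GABRP had at most 2 counts in any of the 4 libraries. Of 11 endoderm factors 2 rose and 1 fell (GATA6).

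Among the remaining genes with the largest rises, CBLN2, a synapse organiser, had 3 and 3 counts in the cjiPSCs and 198 and 165 in pre-ME − ActA (ratio 38.8, 95% counting interval 17.7 to 106). TAFA2, a secreted neural protein, had 11.3 and 2.96 normalised counts and then 179 and 190.2 (log2 fold change 4.56, SE 0.43, adjusted p = 1.77e-06). RGS5, a regulator of G protein signals known from pericytes, had 19.8 and 50.4 and then 473 and 563 (log2 fold change 4.01, SE 0.60, adjusted p = 0.000103), and SPON1, a matrix protein of the floor plate, 15.1 and 19.3 and then 239.9 and 226 (log2 fold change 3.82, SE 0.25, adjusted p = 6e-08). All 4 calls held, and the induced replicates were within 1.5-fold of each other. The largest falls included 6 further genes of varied roles. TNF, the cytokine, had 491 and 368 normalised counts in the cjiPSCs and 11.8 and 10.9 in pre-ME − ActA (log2 fold change -5.19, SE 0.30, adjusted p = 3.27e-08). VCAM1, an adhesion molecule that TNF induces in endothelium, had 232 and 117 and then 1.18 and 7.93 (log2 fold change -5.44, SE 0.78, adjusted p = 7.52e-05), and MMP13, a collagenase, 158 and 189.7 and then 2.36 and 4.95 (log2 fold change -5.60, SE 0.47, adjusted p = 5.77e-07). IL7R, a cytokine receptor, fell from 114 and 113 to 4.72 and 0.991, and HIC1, a repressor that p53 induces, from 247 and 237 to 10.6 and 2.97 (log2 fold change -4.97, SE 0.50, adjusted p = 3.37e-06). NPTX2, a neuronal pentraxin, had 555 and 31.1 and then 4.72 and 4.95, with a log2 fold change of -6.81 against replicate 1 and -2.62 against replicate 2.

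Few housekeeping genes were called. Of 24 genes of cholesterol synthesis and uptake none was called by edgeR or DESeq2 (0 higher and 17 lower at an unadjusted p under 0.05). In all 23 of them had a lower estimate in pre-ME − ActA, with a median of -0.73 against 0.03 over all genes. HMGCS1, the entry enzyme, had 5117 and 6421 before and 4468 and 5111 after, barely separated (adjusted p = 0.216). No gene was called by edgeR or DESeq2 in 5 further lists, whose counts at an unadjusted p under 0.05 follow. Glycolysis and the hypoxia response had 5 higher and 10 lower of 29 (median -0.17), the cell cycle and MYC 6 and 6 of 19 (median 0.00) and DNA methylation 3 and 1 of 8 (median -0.12). Cytosolic ribosomal proteins had 3 higher and 25 lower of 75 (median -0.16), and subunits of complex I 12 and 5 of 37 (median 0.21). SLC2A1, the glucose transporter, overlapped between the groups, at 2541 and 2919 before and 3481 and 2833 after. Of 17 p53 targets 1 rose and 1 fell, of which PLK3 held (300.5 and 243 to 46.0 and 46.6), and of 17 stress genes 1 rose, the cystine transporter SLC7A11 (19.8 and 17.8 to 89.6 and 70.3). Outside the housekeeping lists, among 61 potassium and sodium channels 6 rose and 4 fell, with 1 and 2 held calls. These were larger shares than the 2.11% and 3.16% called over all tested genes. KCNS3, a silent potassium channel subunit, had 0 and 5.93 and then 52.5 and 36.7, and KCNK13, another potassium channel subunit, 65.9 and 32.6 and then 4.13 and 3.96.

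Pre-ME − ActA was next set against pre-ME + ActA, made from cjPSCM in the same way with 100 ng/ml ActA added. The cjiPSCs do not enter here. In pre-ME − ActA 109 genes (0.69% of those tested) were higher and 225 (1.42%) lower than in pre-ME + ActA, while without replicate 1 of the latter the numbers were 43 and 139, and without replicate 2 of the former 66 and 160. NODAL, the ligand whose receptors ActA also uses, had 0 and 0.991 normalised counts without ActA and 224 and 53.4 with it. LEF1 was lower without ActA, at 513 and 356 against 2202 and 1718 (log2 difference -2.15, SE 0.27, adjusted p = 6.5e-05), and so was CDX2, at 27.7 and 29.7 against 197 and 139 (log2 difference -2.54, SE 0.35, adjusted p = 0.000116). CDX1 had 199 and 147 against 678 and 449 and fell short of the fold threshold. EOMES reached 39.2 and 22.5 with ActA against 8.84 and 3.96 (log2 difference -2.18, SE 0.57, adjusted p = 0.0145). SP5 had 1763 and 1444 against 2743 and 1871 and AXIN2 1931 and 1697 against 2316 and 2149, and neither passed the test (adjusted p = 0.0689 and 0.138). LEF1 and CDX2, which rose from cjiPSCs without ActA, were thus higher still with it.

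ERK readouts differed between these conditions too. ETV4 had 46.6 and 30.7 normalised counts without ActA and 676 and 492 with it (log2 difference -3.86, SE 0.27, adjusted p = 2.37e-07), and SPRY4 132 and 72.3 and 1116 and 886 (log2 difference -3.24, SE 0.22, adjusted p = 1.73e-07). KDR had 558 and 397 against 2688 and 2788 (log2 difference -2.50, SE 0.20, adjusted p = 6.68e-07), and PMEPA1 63.1 and 50.5 against 512 and 531 (log2 difference -3.16, SE 0.37, adjusted p = 3.71e-05). These 4 genes, which fell from cjiPSCs without ActA, were thus higher with it in the same basal medium. CYP26B1 had 6.48 and 5.94 against 279.5 and 166 (log2 difference -5.12, SE 0.42, adjusted p = 8.08e-07). TFAP2A went the other way, with 187 and 198 without ActA and 24.2 and 15.4 with it (log2 difference 3.24, SE 0.48, adjusted p = 0.00026). FGF3 was also higher without ActA (86.7 and 53.5 against 5.84 and 12.6, log2 difference 3.04, SE 0.49, adjusted p = 0.000755), as was SPON1 (239.9 and 226 against 41.7 and 39.3, log2 difference 2.53, SE 0.21, adjusted p = 1.19e-06). With ActA, BCL3 had 20.03 and 33.7, SOCS1 53.4 and 60.4 and GATA6 459 and 349.7, and their differences did not pass the test (adjusted p = 0.229, 0.0604 and 0.981).

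The response was also compared with that of cjiPSCs kept in TESR medium and put through the same 24 h without ActA, as an interaction tested on the adjusted p alone, with no library in common. The response was higher from cjPSCM for 466 genes (2.95% of those tested) and lower for 567 (3.59%), counts that ranged from 214 to 1301 and from 229 to 1411 when 1 of the 8 libraries was left out. AXIN2 started at 672 and 808 in cjPSCM and at 159.8 and 214 in TESR and reached 1931 and 1697 and 2480.3 and 2554 (log2 difference -2.45, SE 0.20, adjusted p = 5.69e-06). LGR5 rose from cjPSCM and had a log2 fold change of -1.34 from TESR, where it went from 496 and 252 to 176 and 124 (log2 difference 5.03, SE 0.53, adjusted p = 3.75e-05). HIC1, TBX3 and COL7A1 fell from cjPSCM and were not called from TESR, with log2 fold changes of 0.82, 0.60 and 0.74 in the latter and interactions of -5.78, -3.19 and -3.17. These 5 interactions stood with each of the 8 libraries left out. SP5 rose in both media, by 6.22 from cjPSCM and by 5.77 from TESR on the log2 scale, and its interaction was not past the threshold (log2 difference 0.45, SE 0.38, adjusted p = 0.513).

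**Figure D5:**
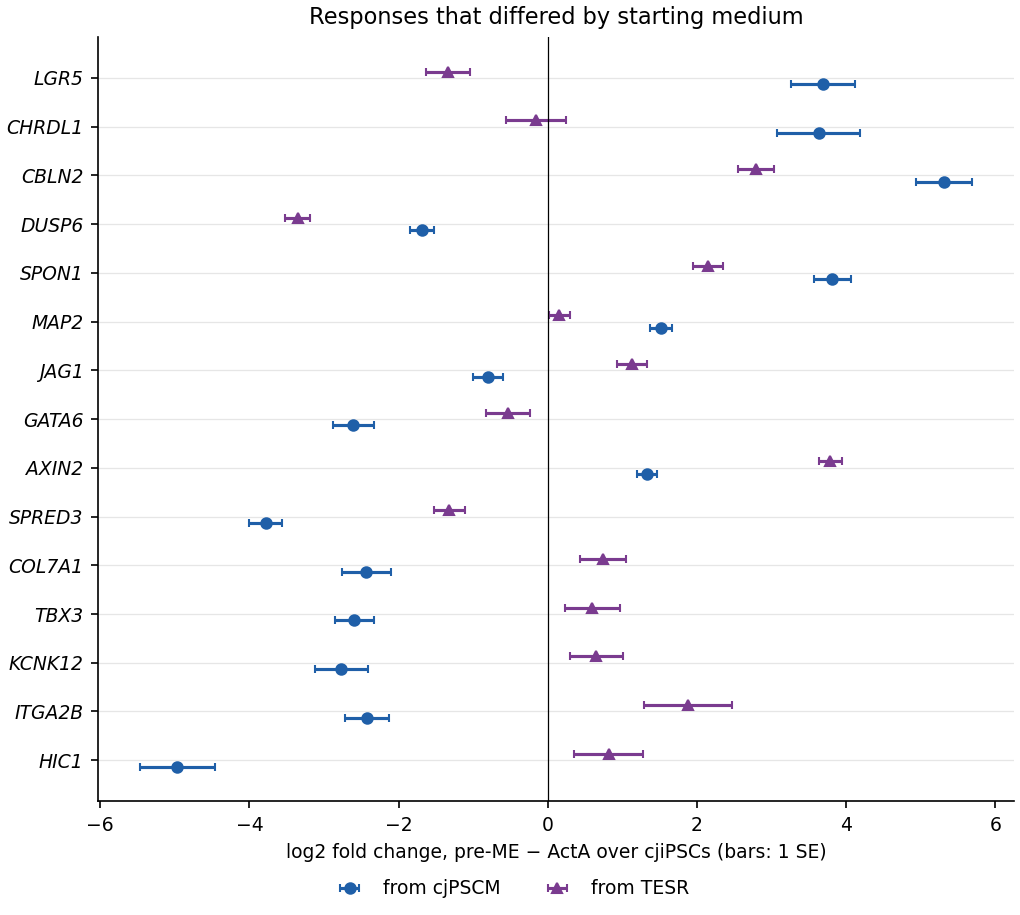
Log2 fold change of pre-ME − ActA over cjiPSCs (horizontal axis, bars of 1 SE) for cells that started in cjPSCM (blue circles) or in TESR (purple triangles). Shown are the 15 named genes whose interaction passed an adjusted p of 0.05 and stood with each of the 8 libraries left out, and AXIN2 lies at 1.33 from cjPSCM and 3.79 from TESR.

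Levels on day 4 in cells sorted from embryoid bodies of these pre-ME − ActA cells are given as values without a test. Their labels differ on the sort, naming CXCR4 with EpCAM in one field and integrin α6 with EpCAM in the titles. SP5 had 81.3 and 59.9 normalised counts in cjPGCLCs and 32.3 and 48.0 in somatic cells, and CDX1 44.0 and 28.4 in the former and 9.22 and 7.74 in the latter. MSX1 had 2427 and 1808 in cjPGCLCs and 5486 and 4244 in somatic cells, and LEF1 1811 and 1790.3 in the former and 4656 and 4686 in the latter. TFAP2A was at 854 and 958 in the former and 796 and 539.9 in the latter, above its pre-ME level in both. BCL3 stood at 70.6 and 47.3 in cjPGCLCs and 9.22 and 7.74 in somatic cells. GATA6 was at 2397 and 1792 in the former and 3139 and 2865 in the latter, near its level in the starting cells, and SOX17 at 2152 and 2096 in cjPGCLCs against 48.4 and 118 in somatic cells.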

How the data were processed

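Poly(A) RNA-seq data of 20 libraries (10 conditions, 2 biological replicates each) were used. The authors checked the reads with FastQC 0.11.8, mapped them with STAR 2.7.0a to calJac4, counted them with HTSeq 0.11 and deposited the raw count per gene. They also deposited a signal, each count scaled by its library's DESeq2 size factor, called the normalised count here. The annotation release and strand setting are not given in the sources used here, so overlapping, antisense or near-identical genes can share reads. HTSeq's 2 summary lines (reads outside genes, 12.2% to 19.6% in the 4 libraries of the comparison, and ambiguous reads) were left out.

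The tests used edgeR 4.0.16 under R 4.3.3 on the raw counts: TMM scaling, filterByExpr by condition and the quasi-likelihood fit, with 1 coefficient per condition over all 20 libraries (10 residual degrees of freedom, common dispersion 0.0203), with Benjamini-Hochberg adjustment over 15797 genes. SEs are the log2 fold change divided by the root of F. P-values rest on the spread between 2 cultures per condition, pooled over the 10 conditions. The wider spread of the cjiPSC pair (SD 0.914) is thus diluted, and SEs and p-values can understate it. At an adjusted p under 0.05 alone, 2825 genes were higher and 3171 lower. Fitted on the 4 libraries only, with fewer degrees of freedom, the numbers were 216 and 763. Genes were named by a rule: the 10 symbols with the largest change each way among called genes without overlap and whose higher group averaged 100 normalised counts or more, up to 5 called members each way and the most abundant member of each list, and a fixed set of markers, 162 in all. NOTUM, DKK1 and TCF7 were named outside it. The comparison and the 43 lists were chosen with earlier results of these data known. Where both libraries of 1 group had 3 counts or fewer, the ratio of summed counts is given with its exact 95% interval, or a bound against 3 counts where they were 0, which cover counting error only, and genes that low in both groups have no fold. The script was tested on simulated data. Alternatives were DESeq2 1.42.0, edgeR on 4 libraries, DESeq2's size factors, 2 other filters, glmTreat, a replicate block, thinning to 4784964 reads and each library left out. Distances are Euclidean, on log2 normalised counts with 1 added. Promoter sequences were not analysed here, and results of some genes are not reported here. Figures were drawn with Python 3.11.15 and matplotlib 3.10.9.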

Additional observations from a re-analysis of the deposited data

Results flagged for a closer look

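Results were flagged where the response to 24 h without ActA differed between cells that started in cjPSCM and cells that started in TESR medium, by the interaction test of edgeR at an adjusted p under 0.05. The response was higher from cjPSCM for 466 genes and lower for 567. Values below are the log2 fold change from cjPSCM minus that from TESR, for the named genes that passed.

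Interactions that stood with each of the 8 libraries left out in turn were, on the higher side, LGR5 (5.03), CHRDL1 (3.79), CBLN2 (2.52), DUSP6 (1.67), SPON1 (1.66), MAP2 (1.36). On the lower side they were HIC1 (-5.78), ITGA2B (-4.31), KCNK12 (-3.42), TBX3 (-3.19), COL7A1 (-3.17), SPRED3 (-2.47), AXIN2 (-2.45), GATA6 (-2.08), JAG1 (-1.93). For LGR5 and CHRDL1 the level of the cells in TESR medium before induction was above that reached from cjPSCM. CHRDL1 had 634 and 599 normalised counts in those TESR cells and 305 and 284 after induction from cjPSCM. MAP2 started in TESR medium at 1631 and 1644, near the 1679 and 1652 reached from cjPSCM. CBLN2 started there at 46.8 and 38.7, below the 117 and 163 reached. DUSP6 fell in both, from 9708 and 8571 in TESR medium and from 2763 and 3019.5 in cjPSCM. For all 9 on the lower side both starting libraries in cjPSCM were above both in TESR medium. ITGA2B started at 312 and 406 normalised counts in cjPSCM and at 2.75 and 1.49 in TESR. TBX3 started at 431 and 353 and at 12.1 and 14.9, and HIC1 at 247 and 237 and at 19.8 and 20.8. The part of the starting levels in these interactions was not tested.

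Fewer leave-one-out fits kept the other interactions. On the higher side these were CDH1 (4.43), SALL3 (2.57), PGF (1.99), NANOG (1.68), SFRP2 (1.20), SPRY4 (1.04), ID3 (1.02), HMGCS1 (0.86). On the lower side they were FGF3 (-6.06), BCL3 (-5.26), GDF7 (-2.93), CXCR4 (-2.34), SOCS3 (-1.70), COL4A2 (-1.41), ITGA5 (-1.23), PLK3 (-1.19), CCND1 (-1.18), EPHB4 (-1.02). CDH1 had at most 3 counts in each cjPSCM library of this comparison, so that its difference comes from TESR cells, with 1710.5 and 2012 normalised counts before and 34.0 and 42.6 after. FGF3 was at 0 in both TESR starting libraries, so the size of its difference depends on the prior count of the fit. BCL3 was near 0 in the TESR libraries, at 1.10 and 0 normalised counts before and 0.549 and 1.87 after, against 432 and 368 and then 16.5 and 13.9 from cjPSCM. No group here had 4 or more libraries, so no search for single outlying libraries by a critical value was made.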

How the results depend on the processing

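The main limit was the spread between the 2 libraries of cjiPSCs in cjPSCM. Leaving out 1 of the 4 libraries in turn gave between 134 (without cjiPSC replicate 1) and 1184 (without cjiPSC replicate 2) genes that rose and between 322 and 700 that fell, by the same libraries, and 81 and 227 were called each time, a count added after seeing the data. Beyond that, edgeR on the 4 libraries alone called 64 up and 278 down, glmTreat 18 and 66, a filter at a mean of 1 CPM 194 up and thinning to the shallowest library 187 up. DESeq2 gave 245 and 496, DESeq2's size factors 315 and 523, and no filter 372 and 534. Of the 832 genes called, 706 were called the same way by DESeq2 and 339 on 4 libraries. For the interaction, no filter gave 785 genes higher and 991 lower, thinning gave 372 lower, and leaving out 1 of 8 libraries gave 214 to 1301 higher and 229 to 1411 lower. The high counts came without cjiPSC replicate 1 (1205 and 1411), cjiPSC replicate 2 (1093 and 1033) or replicate 2 of cjiPSCs in TESR (1301 and 1214), and the other 5 gave 214 to 319 and 229 to 433. Against pre-ME + ActA, leaving out 1 of 4 libraries gave 43 to 89 genes higher and 139 to 215 lower, the lowest without pre-ME + ActA replicate 1. The cause of these shifts was not tested.

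No named gene that was called changed direction. Among the others, estimates near 0 changed sign when a library was left out: BMP4 lay between -0.41 and 0.83, CCNG1 between -0.29 and 0.44, FGFR1 between -0.066 and 1.14, HSPA8 between -0.012 and 0.21, ID3 between -0.60 and 0.15, ITGA6 between -0.41 and 0.073, SOX2 between -0.49 and 0.0088, and TFAP2C between -1.29 and 0.55. After thinning BMP4 was at -0.048 and EOMES at -0.60.

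Libraries share a replicate number between conditions, but the labels tie it to no shared culture or day, and the deviations of same-numbered libraries had a correlation of -0.216 over 14313 genes (0.284 against pre-ME + ActA), and with 2 pairs of mixed sign the numbers were not taken to pair them. With the number as a replicate block 332 genes rose and 497 fell, the interaction had 446 and 532, and the comparison with pre-ME + ActA 108 and 219. Crossed numbers, added after seeing the data, gave 325 and 487.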
